A study of Mus musculus with 6 samples.

Results

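The p53 pathway, the DNA damage response and the machinery of apoptosis were followed in primary mouse hepatocytes labelled as knocked out for the splicing factor SRSF1. The 53 genes were chosen by name as p53 and its regulators, p53 targets, damage sensors and repair factors, caspases, BCL-2 family proteins and inhibitor of apoptosis proteins. Each was read from the brightest array row annotated with its symbol alone, and 48 of the 53 had such a row, beside 19123 genes tested in all. H2afx was found under its current symbol H2ax. Trp53, Bax and Gdf15 had no annotated row here, and Ei24 and Birc2 lay only on rows that also carry another symbol, so these 5 were not analysed here. All 48 passed the filter on dim rows, which uses the mean of the 6 arrays. Casp12 passed only through the SRSF1HKO arrays and Rrm2b only through the WT arrays, the mean of the other group lying under the filter's bound.

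Liver perfusion was used to isolate the hepatocytes from 3 months old mice of the C57BL/6 strain. In the SRSF1HKO mice, labelled as a hepatocyte-specific knockout, Srsf1 was removed, and WT mice served for comparison, with 3 arrays of each group and no treatment. The labels call the cells primary hepatocyte cultures, and neither the Cre driver, the deleted exons, a time in culture nor the animal behind each array is given in the sources used here. The p-values therefore rest on the spread between these arrays, which may be technical, and their number limits the precision of every value.

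The p53 protein is a transcription factor that is normally kept scarce by MDM2, a ubiquitin ligase which p53 itself induces. Damage to DNA activates the kinases ATM and ATR, which act through the checkpoint kinases on p53, and p53 then induces genes that stop the cell cycle, repair DNA or kill the cell. Death proceeds either through receptors at the cell surface and caspase 8 or through the mitochondria, where BCL-2 family proteins decide on the release of cytochrome c, APAF1 assembles the apoptosome and caspase 9 is activated. In liver, hepatocytes are known to depend on the survival proteins BCL-XL and MCL1 and to be sensitive to killing through FAS. Much of p53 control acts on the protein, which an RNA array does not measure.

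Intensities are the deposited array values, which have no natural unit and are not compared between genes. Median intensities differed between the arrays, from 18.6 to 39.8, and the median gene lay at -0.44 on the log2 scale in SRSF1HKO against WT on the deposited values and at -0.01 after quantile normalization. Log2 differences below are SRSF1HKO minus WT after quantile normalization, with a pseudocount of 16 that understates changes of dim genes, and are given with their standard error (3 against 3 arrays). The words rose and fell are kept for genes with limma's Benjamini-Hochberg adjusted p under 0.05 and the same sign in a pair of fits, one to deposited values and one to quantile-normalized values. Because of the shift between arrays, this asks for a larger increase than decrease, so genes that passed after quantile normalization alone are named as well. In the fit to deposited values with all arrays, limma took each standard error from genes of like intensity. Errors and p-values of that fit do not include the gene's own spread between arrays. SRSF1HKO replicate 1 stood apart: it had an Xist intensity of 9.95 against 2122 to 3532 on the other 5 arrays, that of a male among females. The other SRSF1HKO arrays correlated at 0.987 with each other over log2 gene values, and with replicate 1 at 0.939 and 0.945. With the WT arrays replicate 1 correlated still less, at 0.932, 0.933 and 0.935. The leading number in its title comes after those of the WT samples and directly before those of the other SRSF1HKO samples. The later number lies among those of the WT samples and apart from those of the other SRSF1HKO samples. Its label gives SRSF1HKO, and whether it is mislabelled was not tested. Main results are given with and without it. The targeted gene Srsf1 read 242, 371 and 386 in the SRSF1HKO arrays and 666, 667 and 607 in the WT arrays, a difference of -0.53 ± 0.18 with adjusted p = 0.185. On the deposited values it was -0.95 ± 0.27 (adjusted p = 0.010), and without SRSF1HKO replicate 1 -0.35 ± 0.12 after quantile normalization. Its exact two-sided permutation p was 0.1, the smallest that 3 against 3 arrays allow. Whether the probes of this row lie in the deleted exons is not known, so the row is a limited check of the knockout.

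Promoter sequences are shown for 2 of the 3 genes that rose and for 4 p53 targets whose windows hold the p53 motif and that did not pass in both fits. They are the 250 bases before the transcription start, from RefSeq on GRCm38.p6, 5′ to 3′ on the gene's strand. Capitals mark the p53 response element decamer, the GC box GGGCGG and the CCAAT box CCAAT, each searched on both strands.
Casp12 (chr9:5345226-5345475, plus strand): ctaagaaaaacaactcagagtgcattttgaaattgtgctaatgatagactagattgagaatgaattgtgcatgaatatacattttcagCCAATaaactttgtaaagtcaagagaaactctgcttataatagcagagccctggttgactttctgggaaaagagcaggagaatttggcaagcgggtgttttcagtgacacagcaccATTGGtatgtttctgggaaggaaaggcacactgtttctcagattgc
Plk2 (chr13:110394794-110395043, plus strand): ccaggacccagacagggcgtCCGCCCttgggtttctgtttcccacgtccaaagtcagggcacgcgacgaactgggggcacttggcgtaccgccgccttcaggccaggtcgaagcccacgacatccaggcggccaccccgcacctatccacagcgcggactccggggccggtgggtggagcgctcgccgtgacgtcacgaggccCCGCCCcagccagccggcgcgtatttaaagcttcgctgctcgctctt
Cdkn1a (chr17:29090729-29090978, plus strand): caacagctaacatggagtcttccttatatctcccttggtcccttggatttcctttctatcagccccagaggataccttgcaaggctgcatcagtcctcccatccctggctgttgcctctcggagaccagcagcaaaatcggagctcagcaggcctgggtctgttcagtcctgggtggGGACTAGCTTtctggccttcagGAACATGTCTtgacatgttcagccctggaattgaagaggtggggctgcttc
Mdm2 (chr10:117710759-117711008, minus strand): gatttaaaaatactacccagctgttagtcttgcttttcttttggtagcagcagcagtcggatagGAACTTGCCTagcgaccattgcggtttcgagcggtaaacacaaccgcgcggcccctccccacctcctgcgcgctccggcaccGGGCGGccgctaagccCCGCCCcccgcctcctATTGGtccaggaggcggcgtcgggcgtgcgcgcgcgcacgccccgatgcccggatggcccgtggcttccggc
Ccng1 (chr11:40755287-40755536, minus strand): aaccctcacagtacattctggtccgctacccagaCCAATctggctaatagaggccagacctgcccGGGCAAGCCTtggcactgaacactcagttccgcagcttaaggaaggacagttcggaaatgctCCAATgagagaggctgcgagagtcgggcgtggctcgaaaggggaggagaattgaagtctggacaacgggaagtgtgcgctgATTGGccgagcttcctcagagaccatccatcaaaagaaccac
Sesn1 (chr10:41887189-41887438, plus strand): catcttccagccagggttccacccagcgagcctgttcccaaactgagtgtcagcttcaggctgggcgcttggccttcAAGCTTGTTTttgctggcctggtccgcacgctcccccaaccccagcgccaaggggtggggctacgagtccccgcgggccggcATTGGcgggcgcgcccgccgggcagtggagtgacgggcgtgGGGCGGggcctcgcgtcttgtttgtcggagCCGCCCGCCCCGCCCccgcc
Cdkn1a and Sesn1 have 2 listed starts each, and the windows printed are those with the decamer, at the upstream start of Cdkn1a and the downstream start of Sesn1. The decamer was found at -73 to -64 and at -51 to -42 from the Cdkn1a start, at -186 to -177 in Mdm2, at -185 to -176 in Ccng1 and at -173 to -164 in Sesn1. In the Sesn1 window 3 of the GC boxes overlap one another. Tnfrsf10b had no entry in the sequence table.

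Of 38 genes of the list with a window, 6 held the decamer in at least 1 window, namely Ccng1, Cdkn1a, Gadd45a, Mdm2, Polk and Sesn1. Over genes this was 15.8%, where 8.2% of all 27025 genes with a window held it. Over windows it was 6 of 50 (12.0%), where 7.13% of all 32851 windows held the decamer. The GC box was found in 62.0% of the windows of listed genes and 32.7% of all, and the CCAAT box in 36.0% and 33.8%. The differences of the 6 genes with a decamer were 1.51 for Cdkn1a, 0.63 for Polk, 0.39 for Mdm2, 0.27 for Ccng1, 0.16 for Gadd45a and -0.79 for Sesn1. None of them passed in both fits with all arrays, while on the deposited values alone Cdkn1a passed as higher and Sesn1 as lower. No decamer was found in the windows of Casp12 and Plk2, which rose. The windows cover only bases just before a listed start, so a decamer elsewhere in or near a gene would be missed. Whether p53 acts on any of these genes was not tested. A match of letters is a description of the window and not a site of binding.

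Of the 48 genes, 3 rose in SRSF1HKO hepatocytes: Casp12, Tnfrsf10b and Plk2. This is set beside 0.842% of all genes tested that rose, and Casp12 passed the filter only through the SRSF1HKO arrays. None of the 48 fell in limma's test, beside 1.40% of all genes, and at an unadjusted p under 0.05 in both fits 5 were higher and 2 lower, beside 1.51% and 6.38% of all genes. After quantile normalization alone 6 were higher, the others being H2afx, Bcl2 and Apaf1, and 0 were lower, where 2.73% and 1.41% of all genes passed in these directions. The same fit had 15 higher and 2 lower at an unadjusted p under 0.05, beside 8.94% and 6.40% of all genes. On the deposited values alone 4 were higher, Cdkn1a being added to the 3, and 2 were lower, Sesn1 and Atm, where 0.931% and 6.86% of all genes passed. Bulk RNA does not tell fewer cells of a type from less RNA per cell, here or in any value below.

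**Figure D1:**
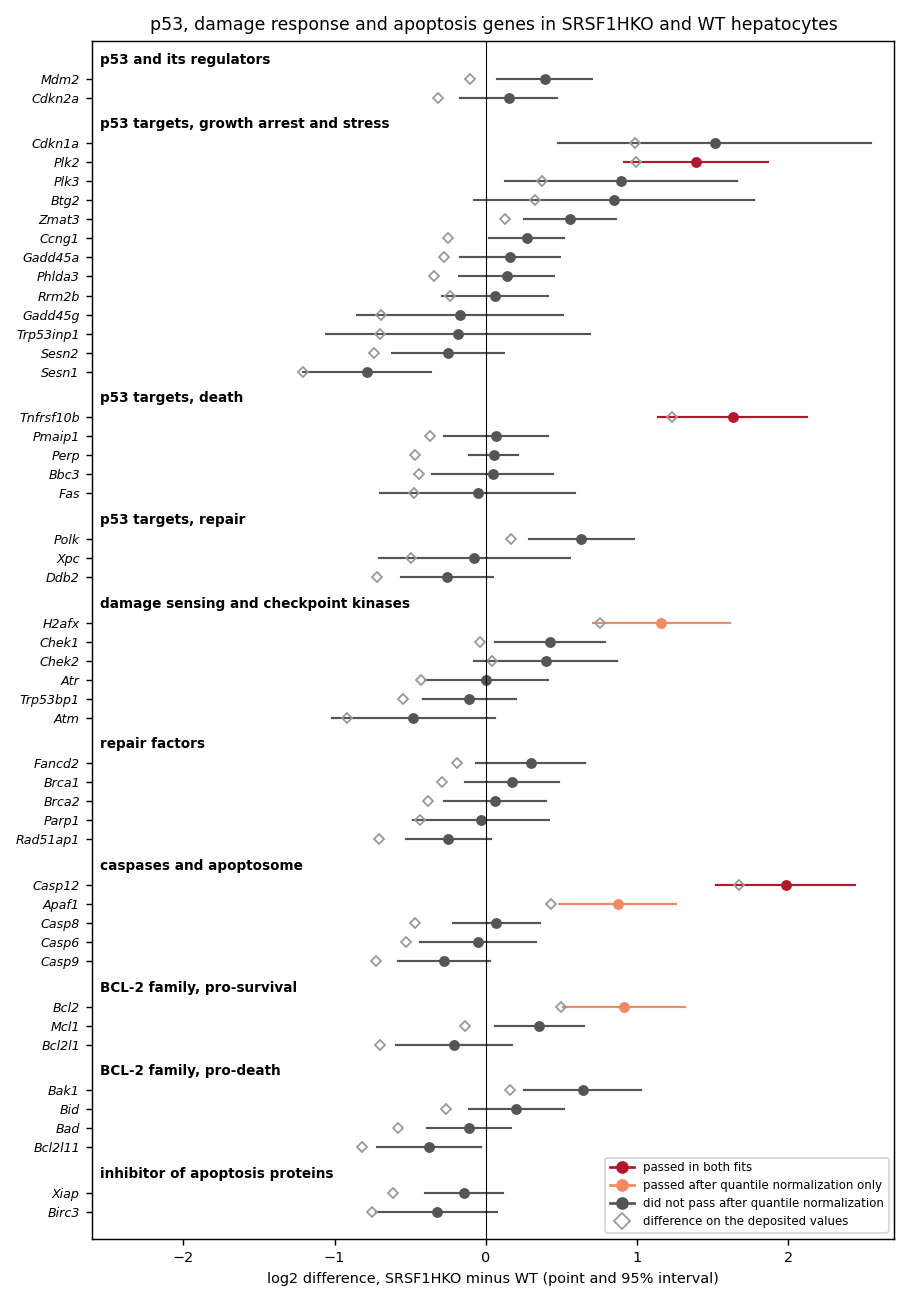
Log2 difference of each of the 48 genes, SRSF1HKO minus WT, after quantile normalization (points, with 95% intervals as lines) and on the deposited values (open diamonds), grouped by role. Casp12, Tnfrsf10b and Plk2 passed in both fits, H2afx, Bcl2 and Apaf1 after quantile normalization only, and the diamonds lie to the left of the points throughout.

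Casp12, a caspase of the inflammatory group found at the endoplasmic reticulum, had the largest difference of the 48, with a WT mean of 4.81 on the deposited log2 scale, under the filter's bound of 5.18, so a dim gene could pass here only by being high in SRSF1HKO. Its intensity was 73.8, 71.6 and 75.3 in SRSF1HKO replicates 1, 2 and 3 and 22.2, 8.59 and 7.73 in WT replicates 1, 2 and 3. The 3 SRSF1HKO values lie close together and above all WT values, which were below the median of all rows on their arrays, so the size of the fold rests on the pseudocount, running from 1.03 to 3.08 over the settings tried. The difference was 1.98 ± 0.20 (limma adjusted p = 0.0012), 1.67 ± 0.28 on the deposited values (adjusted p = 3e-07) and 2.11 ± 0.20 without SRSF1HKO replicate 1 (adjusted p = 6.4e-05).

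Tnfrsf10b encodes the death receptor for TRAIL and is a p53 target. It read 159, 116 and 66.9 in SRSF1HKO replicates 1, 2 and 3 and 30.8, 46.7 and 34.2 in WT replicates 1, 2 and 3. The groups do not overlap, and the SRSF1HKO values spread more widely, from 66.9 to 159. The difference was 1.63 ± 0.22 (adjusted p = 0.0043), 1.23 ± 0.29 on the deposited values (adjusted p = 0.0012) and 1.48 ± 0.20 without SRSF1HKO replicate 1 (adjusted p = 0.00059). Its call was lost without WT replicate 1.

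Plk2, a polo-like kinase induced by p53 that takes part in the cell cycle and at centrioles, read 161, 241 and 179 in SRSF1HKO replicates 1, 2 and 3 and 114, 82.1 and 72.3 in WT replicates 1, 2 and 3. All SRSF1HKO arrays lay above all WT arrays. The difference was 1.39 ± 0.21 (adjusted p = 0.0072), 0.99 ± 0.29 on the deposited values (adjusted p = 0.015) and 1.60 ± 0.18 without SRSF1HKO replicate 1 (adjusted p = 0.00016). The call in both fits was lost when SRSF1HKO replicate 2 or 3 or WT replicate 1 or 2 was left out.

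**Figure D2:**
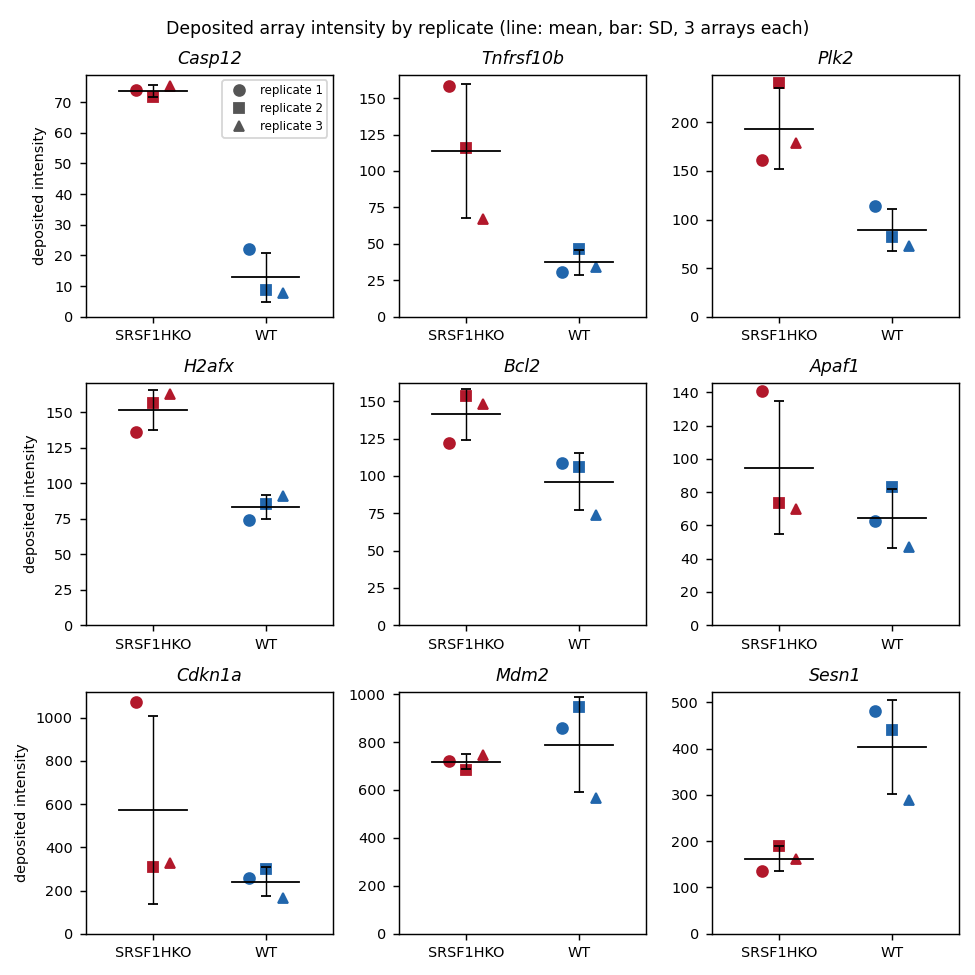
Deposited intensity of 9 genes on each array (points, with marker shape for the replicate), with the group mean as a line and the SD as a bar, SRSF1HKO left of WT, on linear axes from 0. Casp12, Tnfrsf10b, Plk2, H2afx, Bcl2 and Cdkn1a do not overlap upward, Sesn1 does not overlap downward, and the high Cdkn1a mean rests on replicate 1.

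The 5 measured hepatocyte markers, among them Alb and Hnf4a, were bright on all arrays, and 0 passed in both fits or at an unadjusted p under 0.05 in both. Alb passed as lower after quantile normalization only, at -0.34 ± 0.05 (limma adjusted p = 0.0044). That scale gave it 13.52 on all 3 WT arrays, so its error reflects ranks and not the measured spread. On the deposited scale its groups overlap, at 6937, 10757 and 9491 in the SRSF1HKO arrays and 11022, 10035 and 11053 in the WT arrays. The difference there was -0.26 ± 0.25 (limma adjusted p = 0.383). Of 8 macrophage markers 1 rose in SRSF1HKO, Cd68, a lysosomal protein of macrophages, which read 306, 139 and 103 in the SRSF1HKO arrays and 85.1, 68.3 and 31.1 in the WT arrays (1.81 ± 0.35, adjusted p = 0.021). The summed quantile-normalized intensity of the 8 was 1164 to 1250 on SRSF1HKO arrays and 601 to 928 on WT arrays, while on the deposited scale it was 912 to 1144 on SRSF1HKO arrays and 572 to 1328 on WT arrays. Of the 8, 7 had differences above 0, with a median of 0.31. By gene they were 0.73 for Cd5l (adjusted p = 0.052), 0.50 for Vsig4, 0.50 for Adgre1, 0.13 for Clec4f, 0.10 for Mrc1, 0.03 for Csf1r and -0.03 for Marco. The summed quantile-normalized intensity of 8 stellate cell markers was 2165 to 2942 on SRSF1HKO arrays and 1502 to 1754 on WT arrays. On the deposited scale it was 1732 to 2538 on SRSF1HKO arrays and 1420.4 to 2265 on WT arrays. Dcn was the largest part, at 628, 1531 and 1612 in the SRSF1HKO arrays and 1207, 874 and 551 in the WT arrays. All 8 stellate cell markers had differences above 0, with a median of 0.33, and of -0.10 on the deposited values. The summed quantile-normalized intensity of 7 endothelial markers was 962 to 1160 on SRSF1HKO arrays and 929 to 1323 on WT arrays. On the deposited scale it was 840 to 937 on SRSF1HKO arrays and 882 to 1667 on WT arrays. Of the 7 endothelial markers and of 4 biliary, 5 lymphocyte and 3 neutrophil markers 0 passed in both fits. Ptprc, a marker of all leukocytes, passed after quantile normalization only, at 0.71 ± 0.15 (adjusted p = 0.030), and its groups do not overlap on either scale. Without SRSF1HKO replicate 1 the stellate cell marker Dcn was higher in both fits, at 1.30 ± 0.15 (adjusted p = 0.00021). None of the markers in these 5 lists (limma, 0 in both directions) passed an unadjusted p of 0.05 in both fits. Of all genes, 1.51% were higher and 6.38% lower at that bound. No marker of these lists read an intensity of 0. Casp12, Tnfrsf10b and Plk2 are also expressed in cells other than hepatocytes, and the part of other cells in their increases was not tested.

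Among the regulators of p53, the ubiquitin ligase gene Mdm2 read 722, 685 and 747 in the SRSF1HKO arrays and 859, 945 and 565 in the WT arrays. The groups overlap on the deposited scale and do not after quantile normalization, with a difference of 0.39 ± 0.14 (95% interval 0.08 to 0.70, adjusted p = 0.195). Cdkn2a, whose locus encodes an inhibitor of G1 cyclin-dependent kinases and the MDM2 antagonist ARF, read 169, 125 and 135 in the SRSF1HKO arrays and 181, 251 and 128 in the WT arrays. Its groups overlap and its difference was 0.15 ± 0.14 (adjusted p = 0.736).

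Of 13 measured p53 targets of growth arrest and stress, Plk2 rose and 12 did not pass. Cdkn1a, the cyclin-dependent kinase inhibitor through which p53 halts the cell cycle, read 1073, 311 and 328 in SRSF1HKO replicates 1, 2 and 3 and 258, 298 and 167 in WT replicates 1, 2 and 3. Every SRSF1HKO value is above every WT value, but replicates 2 and 3 exceed the highest WT array by little on the deposited scale. The difference was 1.51 ± 0.46 (adjusted p = 0.120), and on the deposited values 0.99 ± 0.27 (adjusted p = 0.0084). The latter error does not include the gene's own spread between arrays. By itself, Cdkn1a had p = 0.1 in a two-sided exact permutation test, again the smallest possible. Without SRSF1HKO replicate 1 the difference was 0.88 ± 0.11 and passed after quantile normalization (adjusted p = 0.00046), but not on the deposited values (adjusted p = 0.238).

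Sestrins are stress proteins that restrain mTORC1. Sesn1 read 136, 190.0 and 162 in SRSF1HKO replicates 1, 2 and 3 and 480.4, 441 and 288 in WT replicates 1, 2 and 3. Its groups do not overlap on either scale, its difference was -0.79 ± 0.19 (adjusted p = 0.052), and on the deposited values -1.21 ± 0.28 (adjusted p = 0.00068). It thus missed the threshold after quantile normalization. Without SRSF1HKO replicate 1 it passed in both fits, at -0.62 ± 0.12 (adjusted p = 0.0057). The brightest of the 4 rows of Sesn2 read 204, 129 and 118 in the SRSF1HKO arrays and 279, 297 and 199 in the WT arrays, with a difference of -0.25 ± 0.16 (adjusted p = 0.568). The other 3 rows of Sesn2 were at -0.63, 0.31 and 0.29. Those at 0.31 and 0.29 did not pass the filter on dim rows, with intensities from 3.16 to 29.7, and the row at -0.63 passed it.

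The other targets of this kind spanned a wide range of agreement between arrays. Zmat3, an RNA-binding zinc finger protein, had a difference of 0.56 ± 0.13 (adjusted p = 0.055) and Ccng1, cyclin G1, one of 0.27 ± 0.11 (adjusted p = 0.277). Gadd45a, a stress sensor, Phlda3, which restrains AKT, and Rrm2b, a ribonucleotide reductase subunit, had differences of 0.16, 0.14 and 0.06, with Rrm2b below the median of all rows on every array. The median difference of the 13 was 0.16, beside -0.01 over all genes tested.

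Of 5 measured p53 targets that promote death, Tnfrsf10b rose and 4 did not pass. Fas, the receptor through which hepatocytes are killed, read 44.1, 87.7 and 69.5 in the SRSF1HKO arrays and 109.6, 91.5 and 90.0 in the WT arrays, and its difference was -0.05 ± 0.29 (95% interval -0.70 to 0.59). Perp, a membrane protein of desmosomes, read 2117, 2663 and 2633 in the SRSF1HKO arrays and 3892, 3507 and 2902 in the WT arrays, and its difference was 0.05 ± 0.07 (95% interval -0.11 to 0.22). Bbc3 and Pmaip1, which encode the BH3-only proteins PUMA and NOXA, had differences of 0.04 ± 0.18 and 0.07 ± 0.15. The adjusted p of these 4 ran from 0.846 to 0.971. The 95% intervals were -0.36 to 0.45 for Bbc3 and -0.28 to 0.41 for Pmaip1, so both include 0.

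Of 3 p53 targets in repair none passed. Polk, a translesion DNA polymerase, read 182, 129 and 113 in the SRSF1HKO arrays and 124, 133 and 110.1 in the WT arrays, with a difference of 0.63 ± 0.15 (adjusted p = 0.056). Ddb2, which recognises ultraviolet lesions, read 185, 139.7 and 154 in the SRSF1HKO arrays and 259.9, 321 and 241 in the WT arrays, with a difference of -0.26 ± 0.13 (adjusted p = 0.440). Xpc, its partner in nucleotide excision repair, had a difference of -0.08 ± 0.28 and an SRSF1HKO replicate 1 that lay -1.13 on the log2 scale relative to the mean of the other 2. At an unadjusted p under 0.05 after quantile normalization Polk was the one of the 3 that was higher and 0 were lower. Of all genes, 8.94% were higher and 6.40% lower at that bound.

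**Figure D3:**
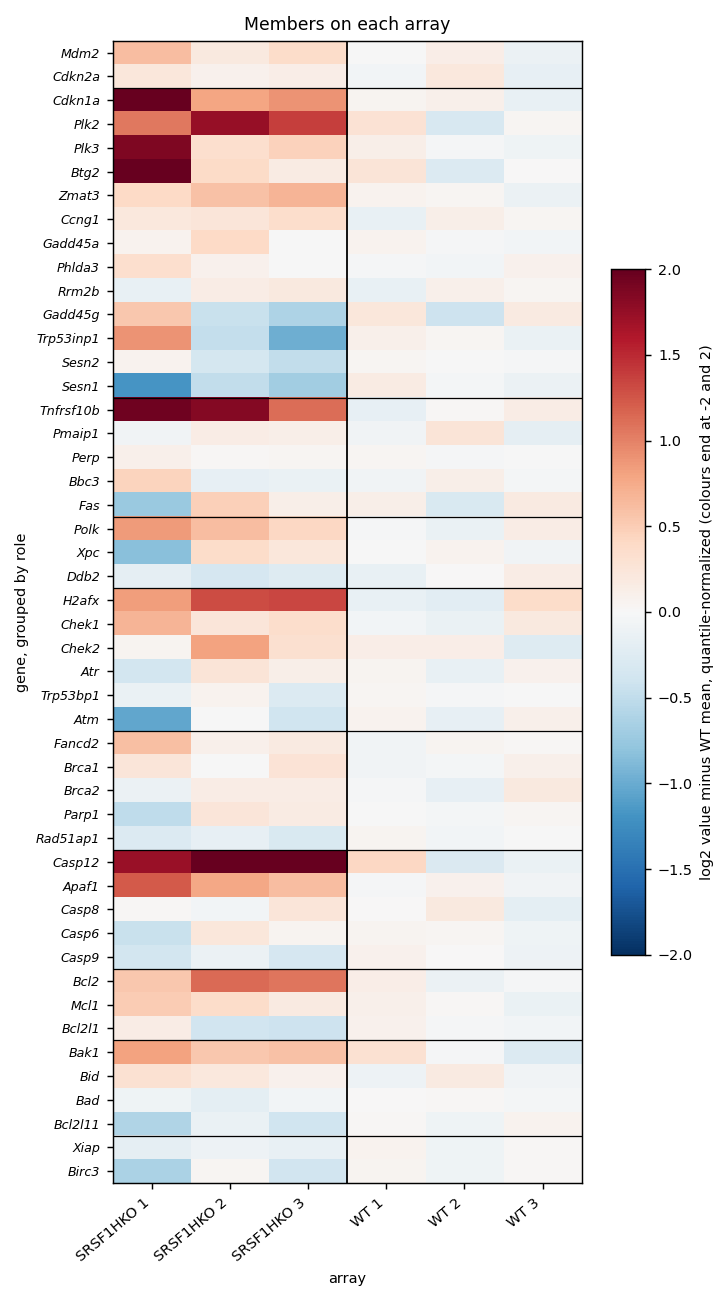
Quantile-normalized log2 value of each gene on each array minus the WT mean of that gene, with SRSF1HKO arrays left of WT arrays and horizontal lines between roles (red higher, blue lower, colours end at -2 and 2). Casp12, Tnfrsf10b and Plk2 are red on all 3 SRSF1HKO arrays, while Plk3, Btg2 and Cdkn1a are deepest on SRSF1HKO replicate 1.

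Among 6 measured damage sensors and checkpoint genes, H2afx passed after quantile normalization only. It encodes the histone variant that is phosphorylated around double-strand breaks, a change of the protein that these arrays do not see. It read 136, 157 and 163 in SRSF1HKO replicates 1, 2 and 3 and 74.4, 85.1 and 91.1 in WT replicates 1, 2 and 3. The groups do not overlap on either scale. The difference was 1.16 ± 0.20 (adjusted p = 0.014), 0.75 ± 0.29 on the deposited values (adjusted p = 0.088), and it passed in both fits without SRSF1HKO replicate 1, at 1.35 ± 0.17 (adjusted p = 0.00036).

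The kinase genes upstream of p53 did not pass after quantile normalization. Atm read 64.5, 109 and 82.7 in the SRSF1HKO arrays and 189, 182 and 149 in the WT arrays, with a difference of -0.48 ± 0.24 (adjusted p = 0.407), and passed on the deposited values at -0.92 ± 0.29 (adjusted p = 0.030). Its lowest value was on SRSF1HKO replicate 1, and without that array the difference was -0.20 ± 0.15. Chek1, the checkpoint kinase below ATR, read 148, 80.1 and 93.3 in the SRSF1HKO arrays and 105, 117 and 101 in the WT arrays, with a difference of 0.42 ± 0.16 (adjusted p = 0.231). Atr, Chek2 and Trp53bp1, an adaptor at double-strand breaks, had differences of 0.00 ± 0.18, 0.39 ± 0.21 and -0.11 ± 0.14.

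None of 5 repair factors passed in limma's test. At an unadjusted p under 0.05 after quantile normalization 0 were higher and 0 lower, beside 8.94% and 6.40% of all genes. Rad51ap1, a factor of homologous recombination, read 138, 119 and 109 in the SRSF1HKO arrays and 230.0, 239 and 165 in the WT arrays, with a difference of -0.25 ± 0.12 (adjusted p = 0.408). Fancd2, of the Fanconi pathway for crosslinks, read 208, 124 and 137 in the SRSF1HKO arrays and 174, 221 and 143 in the WT arrays, with a difference of 0.30 ± 0.16 (adjusted p = 0.457). Brca1 and Brca2 of homologous recombination and Parp1, which marks strand breaks, had differences of 0.17 ± 0.14, 0.06 ± 0.15 and -0.03 ± 0.20. The 95% intervals of the 5 reached no further than -0.53 on the lower side, for Rad51ap1, and 0.66 on the upper side, for Fancd2.

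Among 5 measured caspases and the apoptosome, Casp12 rose and Apaf1 passed after quantile normalization only. Apaf1, the scaffold of the apoptosome, read 141, 73.5 and 69.8 in SRSF1HKO replicates 1, 2 and 3 and 62.4, 82.9 and 47.2 in WT replicates 1, 2 and 3. On the deposited scale the groups overlap, since WT replicate 2 lies above SRSF1HKO replicates 2 and 3. The difference was 0.87 ± 0.17 (adjusted p = 0.024) and 0.70 ± 0.13 without SRSF1HKO replicate 1 (adjusted p = 0.0044). On the deposited values it was 0.43 ± 0.29 (adjusted p = 0.249), and 0.15 without SRSF1HKO replicate 1 (adjusted p = 0.659). Casp9, which the apoptosome activates, read 121, 112 and 97.5 in the SRSF1HKO arrays and 216, 232 and 142 in the WT arrays, with a difference of -0.28 ± 0.13 (adjusted p = 0.390). Casp8, the initiator below death receptors, and Casp6, an executioner, had differences of 0.07 ± 0.13 and -0.05 ± 0.17, with 95% intervals of -0.22 to 0.36 and -0.43 to 0.33.

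Of the 3 survival proteins of the BCL-2 family, Bcl2 passed after quantile normalization only. It read 122, 154 and 148 in SRSF1HKO replicates 1, 2 and 3 and 108, 106 and 74.0 in WT replicates 1, 2 and 3. The groups do not overlap. The difference was 0.91 ± 0.18 (adjusted p = 0.024), 0.50 ± 0.29 on the deposited values (adjusted p = 0.205) and 1.13 ± 0.12 without SRSF1HKO replicate 1 (adjusted p = 0.00016). Mcl1, a survival factor of hepatocytes, read 635, 727 and 609 in the SRSF1HKO arrays and 874, 822 and 524 in the WT arrays, with a difference of 0.35 ± 0.13 (adjusted p = 0.213). Bcl2l1, which encodes BCL-XL, read 369.8, 281 and 268 in the SRSF1HKO arrays and 590.5, 559 and 385 in the WT arrays, with a difference of -0.21 ± 0.17 (adjusted p = 0.681). Without SRSF1HKO replicate 1 Bcl2l1 passed in both fits as lower, at -0.41 ± 0.10 (adjusted p = 0.017). Rows that sum a whole transcript do not separate the long and short splice forms of Bcl2l1, Mcl1 or Casp9.

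None of 4 genes of the BCL-2 family that promote death passed. Bak1, a pore-forming effector, read 275, 233 and 237 in the SRSF1HKO arrays and 291, 257 and 143 in the WT arrays, with a difference of 0.64 ± 0.17 (adjusted p = 0.078). Bcl2l11, the BH3-only protein BIM, read 70.6, 73.2 and 62.4 in the SRSF1HKO arrays and 140.1, 149.5 and 112 in the WT arrays and its groups do not overlap, with a difference of -0.38 ± 0.15 (adjusted p = 0.265). Bid, which caspase 8 cleaves in hepatocytes, and Bad had differences of 0.20 ± 0.14 and -0.11 ± 0.12. A dimmer second row of Bad had 0.37. At an unadjusted p under 0.05 after quantile normalization 1 of the 4 was higher, Bak1, and 1 lower, Bcl2l11. Among all genes 8.94% were higher and 6.40% lower at that bound.

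Neither inhibitor of apoptosis gene passed. Xiap, an X-linked inhibitor of caspases, read 379, 471 and 440.5 in the SRSF1HKO arrays and 777, 706 and 535 in the WT arrays and differed by -0.14 ± 0.11 (adjusted p = 0.678). Without the array of male signal the Xiap difference was -0.13 ± 0.09. Birc3, an NF-kB target that acts at the tumour necrosis factor receptor, read 135, 185 and 133 in the SRSF1HKO arrays and 291, 291 and 213 in the WT arrays, with a difference of -0.33 ± 0.18 (adjusted p = 0.469). In the quantile-normalized fit 0 of them were higher and 0 lower at an unadjusted p under 0.05, beside 8.94% and 6.40% of all genes.

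Set side by side, 2 of 21 p53 targets, 0 of 11 sensors and repair factors and 1 of 14 genes of the death machinery rose. In any of the 3 groups 0 fell, and of all genes tested 0.842% rose and 1.40% fell. The 1 of the death machinery was Casp12, which passed the filter only through the SRSF1HKO arrays. The median differences were 0.07, 0.06 and 0.01 in these groups and -0.01 over all genes tested. By role they were 0.27 for the 2 p53 regulators, 0.16 for arrest and stress targets, 0.05 for death targets, -0.08 for repair targets, 0.20 for sensors and checkpoint kinases, 0.06 for repair factors, 0.07 for caspases and the apoptosome, 0.35 for survival genes, 0.04 for pro-death genes and -0.23 for inhibitors of apoptosis. Within each group the values ran in both directions, from -0.79 to 1.63 in p53 targets, from -0.48 to 1.16 in sensors and repair factors and from -0.38 to 1.98 in the death machinery. After quantile normalization the groups of arrays did not overlap upward for 16 of the 48 genes and downward for 7, where 11.6% and 10.1% of all genes did so. No test between the groups of genes was made, since the genes were chosen with results known.

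SRSF1HKO replicate 1 differed from the other SRSF1HKO arrays in several p53 targets. By over 1 on the quantile-normalized log2 scale, a bound set after the values were seen, it was above the mean of the other 2 for 5 of the 48 genes and below it for 2, beside 0.654% and 2.50% of all genes. The 5 were all p53 targets of growth arrest and stress: Cdkn1a (2.0), Btg2 (1.73), Trp53inp1 (1.62), Plk3 (1.47) and Gadd45g (1.08). The 2 below were Xpc (-1.13) and Fas (-1.04). Other targets of growth arrest and stress lay within the bound. They were Sesn2 (0.49), Phlda3 (0.31), Ccng1 (-0.09), Gadd45a (-0.13), Zmat3 (-0.23), Rrm2b (-0.33), Plk2 (-0.51) and Sesn1 (-0.59). Of 27 further p53 targets outside the 48, replicate 1 was over the bound above for 1 and below for 0.

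Btg2, an antiproliferative cofactor of mRNA deadenylation, read 1506, 644 and 522 in SRSF1HKO replicates 1, 2 and 3 and 852, 589 and 505 in WT replicates 1, 2 and 3. Plk3, a stress-responsive polo-like kinase, read 2102, 952 and 992 in SRSF1HKO replicates 1, 2 and 3 and 1182, 1057 and 726 in WT replicates 1, 2 and 3. Trp53inp1, a p53 cofactor induced by stress, read 1145, 563 and 378 in SRSF1HKO replicates 1, 2 and 3 and 1235, 1165 and 749 in WT replicates 1, 2 and 3. On the quantile-normalized scale Plk3 was higher on all 3 SRSF1HKO arrays than on any WT array, and without replicate 1 it passed in that fit at 0.41 ± 0.09 (adjusted p = 0.014). In these 3 genes replicates 2 and 3 lie within or below the WT range on the deposited scale, while replicate 1 is above it for Btg2 and Plk3 and inside it for Trp53inp1. Gadd45g, of the same family as Gadd45a, read 220.0, 87.9 and 80.7 in the SRSF1HKO arrays and 251, 174 and 182 in the WT arrays. With all arrays the differences were 0.85 ± 0.41, 0.89 ± 0.34, -0.18 ± 0.39 and -0.17 ± 0.30 in this order, and none passed. The part of sex, of handling or of other properties of this array in these values was not tested.

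**Figure D4:**
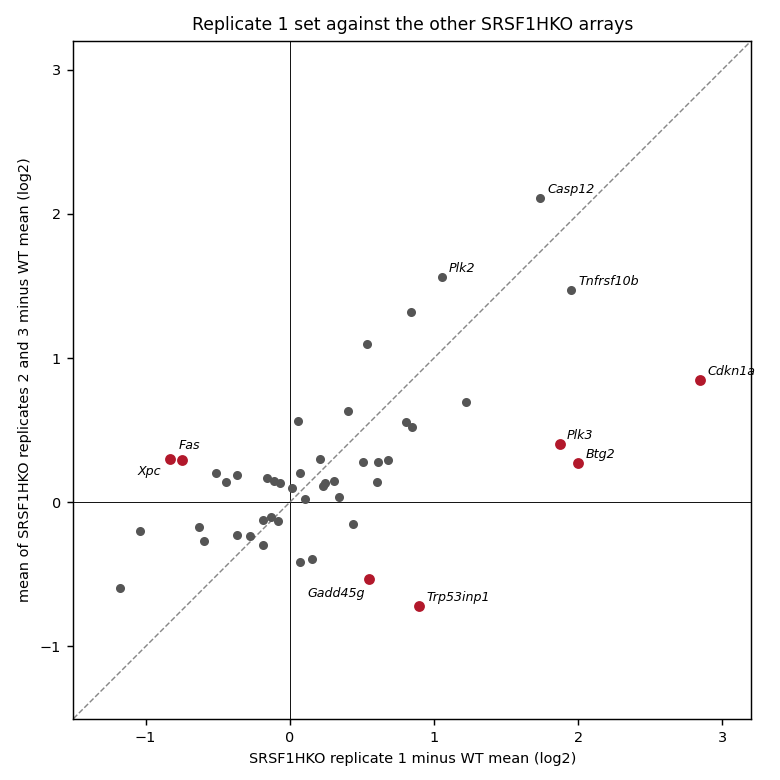
Each of the 48 genes by its quantile-normalized log2 value on SRSF1HKO replicate 1 (horizontal) and the mean of SRSF1HKO replicates 2 and 3 (vertical), both minus the WT mean, with a dashed line where the 2 are equal. The 7 genes in red differ by over 1, with Cdkn1a, Btg2, Plk3, Gadd45g and Trp53inp1 below the line and Xpc and Fas above it.

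Without SRSF1HKO replicate 1, 4 of the 48 genes were higher in both fits and 4 lower, beside 0.973% and 5.29% of all genes. Casp12, Tnfrsf10b and Plk2 were joined by H2afx, and the lower genes were Sesn1, Sesn2, Trp53inp1 and Bcl2l1. The differences were -0.43 ± 0.11 for Sesn2 (adjusted p = 0.021) and -0.74 ± 0.14 for Trp53inp1 (adjusted p = 0.0046). After quantile normalization alone 11 were higher and 4 lower, beside 9.74% and 5.40% of all genes. The 11 were those 4 higher genes with Cdkn1a, Apaf1, Bcl2, Plk3, Zmat3 at 0.64 ± 0.13 (adjusted p = 0.0066), Polk at 0.54 ± 0.13 (adjusted p = 0.018) and Bak1 at 0.58 ± 0.15 (adjusted p = 0.026).

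Further genes of the same pathways, 98 measured of 113 listed, held 1 gene that rose and 0 that fell in limma's test, where 0.842% and 1.40% of all genes did so. At an unadjusted p under 0.05 in both fits 1 was higher and 4 were lower, beside 1.51% and 6.38% of all genes. The gene was Mlkl, the pseudokinase that executes necroptosis, which read 257, 279 and 247 in SRSF1HKO replicates 1, 2 and 3 and 209, 103 and 95.6 in WT replicates 1, 2 and 3. The groups do not overlap, although WT replicate 1 lies nearer to the SRSF1HKO arrays than to the other WT arrays. The difference was 1.40 ± 0.24 (adjusted p = 0.013) and 1.45 ± 0.24 without SRSF1HKO replicate 1. Its call in both fits was lost when SRSF1HKO replicate 2 or 3 or WT replicate 2 or 3 was left out. Rad18, a ubiquitin ligase of translesion synthesis, and Bok, a BCL-2 family member, passed after quantile normalization only, at 0.99 ± 0.20 (adjusted p = 0.028) and 0.78 ± 0.16 (adjusted p = 0.027). The counts after quantile normalization were 0 of 27 other p53 targets, 0 of 11 other p53 regulators, 1 of 34 other repair genes and 2 of 26 other apoptosis genes higher, and 0 lower in each, beside 2.73% and 1.41% of all genes. At an unadjusted p under 0.05 in that fit 3, 2, 6 and 4 of them were higher and 1, 1, 0 and 2 lower, in the same order, beside 8.94% and 6.40% of all genes.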

How the data were processed

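Total RNA of hepatocytes was hybridised to 1 mouse exon array per sample, 3 SRSF1HKO and 3 WT, grouped by the genotype in the labels. The deposited values are linear intensity summaries made by the authors. PLIER as the tool and mm9 as the build come from the submitters' processing notes. For the PLIER version, background step and scaling, the labels and notes used here say nothing. The table held 238609 rows, of which 24343 carry 1 gene symbol in the platform annotation. No detection calls were used, and no coordinates of rows are printed.

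Values were transformed as log2(intensity + 16), all rows with a mean below the 40th percentile (5.18 on this scale) were dropped, and the brightest row was kept for each of 19123 genes. Linear models without covariates and with intensity-trend empirical Bayes came from limma 3.58.1 (R 4.3.3) and were run once with deposited and once with quantile-normalized values, with Benjamini-Hochberg adjustment over all genes. Both fits were run on simulated data with known changes, and bounds on the outcome were set for the quantile-normalized fit alone. The simulated noise was equal for all genes and no array was outlying, so conditions like those of replicate 1 were not tested. Intervals are 95% intervals of the quantile-normalized fit.

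The genes, the lists of further genes and markers and the rule that a call needs both fits were chosen with earlier results of these data known. Values on every array were given by rule for genes that passed in both fits or after quantile normalization, for Mdm2 and Cdkn1a, and for the 2 genes of each role with the lowest p. Values of other genes were added after they were seen. Alternatives were other scalings, pseudocounts, filters, rows, variance estimates, array weights and the loss of each array.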

Additional observations from a re-analysis of the deposited data

How the results depend on the processing

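Of the 48 genes, 3 rose and 0 fell. With quantile normalization alone 6 were higher, and with deposited values alone 2 were lower (Sesn1 and Atm). With a pseudocount of 64, 1 was lower (Sesn1), and with array quality weights, whose estimation gave a convergence warning, 6 were higher and 6 lower. Leaving out 1 array gave 1 to 4 higher and 0 to 4 lower. The lowest count of higher genes came without WT replicate 1 (Casp12 alone), and 4 lower genes came without SRSF1HKO replicate 1. Casp12 passed in 16 of 16 settings in which it was tested, and the filter at the 60th percentile left it out. It passed the main filter only through the SRSF1HKO arrays, so this count is not separate support for its call. Tnfrsf10b passed in 16 of 17 and Plk2 in 13 of 17, their exceptions being the arrays named with their values.

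Of the other pathway genes, 3 were higher with quantile normalization alone and 7 with weights, and 3 were lower with deposited values alone and 5 with weights. Leaving out 1 array gave 0 to 1 higher and 0 to 2 lower. Over all genes, 161 rose and 267 fell, against 522 and 270 with quantile normalization alone, 178 and 1311 on deposited values alone, 545 and 1316 with weights, 186 and 1012 without SRSF1HKO replicate 1, 85 and 164 without SRSF1HKO replicate 2, 99 and 191 without SRSF1HKO replicate 3, 82 and 84 without WT replicate 1, 102 and 92 without WT replicate 2 and 150 and 90 without WT replicate 3.

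Medians of the roles on deposited values were -0.21 for p53 regulators, -0.25 for arrest and stress targets, -0.44 for death targets, -0.49 for repair targets, -0.23 for sensors, -0.38 for repair factors, -0.47 for caspases, -0.14 for survival genes, -0.42 for pro-death genes and -0.68 for inhibitors of apoptosis, where the median of all genes was -0.44. With array medians centred they were 0.11 for p53 regulators, 0.072 for arrest and stress targets, -0.12 for death targets and -0.17 for repair targets. In that setting they were 0.087 for sensors, -0.063 for repair factors, -0.15 for caspases and -0.10 for pro-death genes. Weights gave 0.21 for repair targets and 0.16 for repair factors, the filter at the 60th percentile 0.0033 for sensors, and the median over a gene's array features 0.17 for pro-death genes. Leaving out 1 array gave -0.23 to 0.31 for repair targets, 0.034 to 0.25 for sensors and -0.023 to 0.16 for repair factors. Apart from the array scale and the fewer genes or arrays these settings use, the cause was not tested. No paired analysis was possible because the labels give no replicate numbers shared by the groups. With 3 arrays a group and no detection calls, small differences, dim genes and the share of each gene's signal that is background cannot be resolved.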
